A study of Rattus norvegicus with 23 samples.

Results

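Elastin (Eln) and 9 genes whose proteins scaffold, anchor or cross-link elastic fibres were followed in the lungs of elderly rats. The 9 others were Fbn1, Ltbp4, Mfap4, Fbln1, Fbln2, Fbln5, Lox, Loxl1 and Loxl2. The genes were taken by their symbols, and the set was drawn up because Eln differed strongly between control rats killed on the 2 days of the study. Control values therefore chose the set, and they are given below as a description without a test. All 10 genes were on the array, with 16 probes, and all 10 stood among the 23010 genes that passed the filter on low signals, which kept a probe if on 5 or more of 23 arrays its signal exceeded that of 95% of the negative control spots.

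Male F344 rats, 19 months old, inhaled through the nose only, for 4 weeks, on 5 days of each week and for 6 h of each day. Controls (Control_D0 and Control_D28) breathed filtered air, and exposed rats (TiO2_D0 and TiO2_D28) a titanium dioxide (TiO2) P25 nano-aerosol at 10 mg/m3. Rats were killed at the end of exposure (D0) or 28 days later (D28), so that D28 rats of either kind were also older than D0 rats. Total RNA of the accessory lobe was hybridized to Agilent single-colour rat arrays, with 1 rat per array: 6 Control_D0, 5 TiO2_D0, 6 Control_D28 and 6 TiO2_D28, where the methods give 6 rats per group. The source label of the TiO2_D28 arrays reads day 0, whereas their titles and descriptions give day 28, which was used.

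Values are log2 processed signals, quantile normalized between arrays, so that a difference of 1 is a doubling of signal. The 75th percentile of the processed signal lay between 1380 and 3470 per array, and 69.5% to 77.9% of spots were well above background. The arrays lay on 5 slides of 1 to 7 arrays; Control_D28 replicate 4 was alone on its slide and was read with a later version of the scanner software. How precisely a difference is known was limited by the number of arrays. Lung markers were well above background on 23 of 23 arrays for Sftpc (surfactant protein C of alveolar type II cells) and Ager (alveolar type I cells).

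Elastic fibres give lung its recoil. Tropoelastin, the product of Eln, is laid down on microfibrils of fibrillin by fibroblasts, myofibroblasts, smooth muscle and mesothelial cells, and lysyl oxidases then cross-link it into an insoluble and very long-lived polymer. Most elastin is made while the lung grows, and the adult lung is known for a low rate of synthesis.

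The sequences of 3 probes are shown because their genes, Eln, Lox and Loxl2, were called in the tested comparison of the days. Probes are 60 bases long and are written 5′ to 3′ in the orientation of the array file, with positions on the rn4 build as listed there. Eln was read by 1 probe, A_64_P138919 (NM_012722), at chr12:23076983-23077042, listed in ascending order. Its bases 31 to 60 are printed with the hexamer AATAAA, known as a polyadenylation signal, in capitals. The Lox probe A_64_P038414 (NM_017061, chr18:47898302-47898361, listed in descending order) and the Loxl2 probe A_44_P105225 (NM_001106047, chr15:50067990-50068049, ascending) have capitals over the 18 bases in frame that were most alike between them, with 13 identical bases of 18.
Eln: atcAATAAAatattttattttttgtcctgg
Lox: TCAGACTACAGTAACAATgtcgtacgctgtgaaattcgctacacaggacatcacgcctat
Loxl2: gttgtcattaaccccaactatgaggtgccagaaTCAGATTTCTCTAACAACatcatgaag

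Eln was low on D0 in both groups, highest in control rats of D28 and between these in exposed rats of D28. In TiO2_D0 rats the values were 9.45, 9.53, 9.64, 9.75 and 10.20, and in TiO2_D28 rats they ran from 10.68 over a median of 11.03 to 11.30. Every exposed rat of D28 was thus above every exposed rat of D0. The mean rose from 9.71 ± 0.30 (SD, n = 5) to 11.01 ± 0.27 (SD, n = 6), a log2 difference of 1.30 (SE 0.16, 95% interval 0.97 to 1.62) and a FC of 2.46, with a limma adjusted p of 0.000135. In tissue RNA, more cells that make a transcript and more of it per cell cannot be told apart. The same difference was 1.09, 0.78, 1.72 and 1.67 within slides 1, 3, 4 and 5, each of which held both groups.

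The control values of Eln, which chose the set, are a description. Control_D0 rats ran from 9.56 over a median of 9.78 to 10.01, and Control_D28 rats from 11.65 over a median of 12.18 to 12.45. The groups did not overlap, and their means of 9.77 ± 0.15 (SD, n = 6) and 12.12 ± 0.30 (SD, n = 6) differed by 2.35 (SE 0.15), a FC of 5.09. Within slides 1, 3 and 5 the difference was 2.62, 2.43 and 1.84. Before normalization, the processed signal of the Eln probe had a median of 938 (732 to 1409) in Control_D0 rats, 904 (697 to 1065) in TiO2_D0 rats, 4142 (2814 to 8956) in Control_D28 rats and 1740 (1353 to 2932) in TiO2_D28 rats.

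Compared on the same day, exposed and control rats overlapped in Eln on D0, where the TiO2 minus control difference was -0.06 (SE 0.16). On D28 they did not overlap: the highest exposed rat, 11.30, lay below the lowest control rat, 11.65. The difference on D28 was -1.11 (SE 0.15), a signal 2.16-fold lower in exposed rats. It was -1.34, -1.20 and -0.54 within slides 1, 3 and 5. Groups did not overlap, with lower values in exposed rats, for 0.461% of all genes on D28. The difference of the D28 and D0 effects was -1.05 (SE 0.22). None of these Eln values was tested, since the control rats that selected Eln stand on one side of each.

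**Figure D1:**
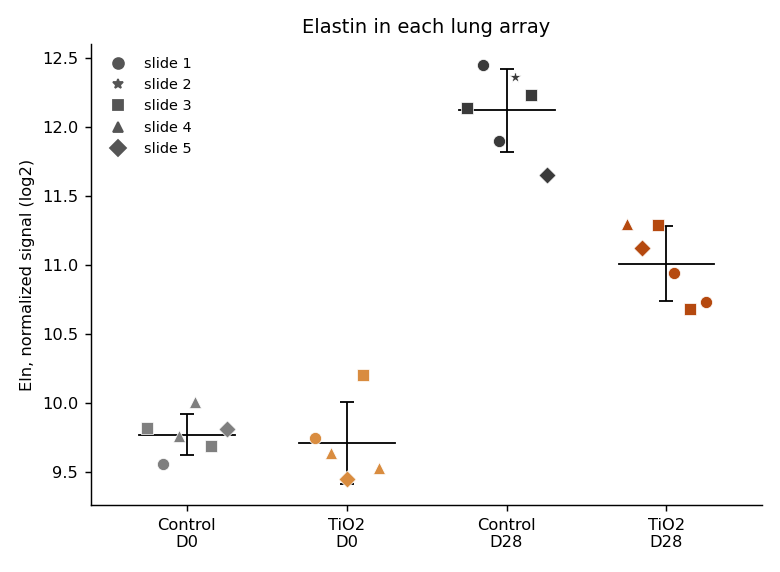
Normalized log2 signal of Eln in each of the 23 arrays by group, with the marker shape giving the slide, horizontal lines the group means and bars ± SD. Control_D28 arrays lie between 11.65 and 12.45 and TiO2_D28 arrays between 10.68 and 11.30, while the D0 arrays of both groups lie between 9.45 and 10.20.

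The 10 genes were tested in exposed rats of D28 against exposed rats of D0, a difference that takes no control value, while the spread behind its SE and p was estimated over all 4 groups. Eln, Lox and Loxl2 were called (adjusted p below 0.05 and FC of at least 1.5), 3 of 10, all higher on D28. Of all genes, 0.369% were called and 0.23% were called higher. With only the 2 exposed groups fitted, 32 genes in place of 85 were called, Eln and Lox among them (adjusted p = 0.0129 each), and Loxl2 was not (0.155). The groups did not overlap for these same 3 members, higher on D28, against 0.774% of all genes. In all, 7 of 10 members had a difference above 0, and their median was 0.34 against -0.01 over all genes. In control rats, by description, 7 of 10 members were above 0, with a median of 0.35. Eln, chosen on these values, did not overlap, so its separation there is no support. Lox did not overlap either, where 1.08% of all genes did not overlap in that direction.

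Lysyl oxidases oxidize lysines of tropoelastin and collagen so that the chains cross-link. Lox, the founding member, was 8.83, 8.93, 8.95, 8.99 and 9.22 in TiO2_D0 rats and ran from 9.53 over a median of 9.72 to 9.83 in TiO2_D28 rats. The lowest D28 rat was above the highest D0 rat. Lox rose by 0.72 (SE 0.09, 95% interval 0.54 to 0.90), a FC of 1.64, with a limma adjusted p of 0.000119. Its 4 probes gave 0.72, 0.63, 0.83 and 0.70, and the difference within slides was 0.45, 0.86, 0.80 and 0.79 on slides 1, 3, 4 and 5. Control rats went from 8.95 to 9.31 on D0 to 9.70 to 10.02 on D28, a difference of means of 0.74 (SE 0.08).

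Lox therefore differed between days by a like amount in exposed and control rats, 0.72 and 0.74, while Eln differed by 1.30 and 2.35. The difference of the Lox effects of TiO2 on D28 and D0 was -0.02, with a 95% interval of -0.26 to 0.23 (limma adjusted p = 0.999).

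Loxl2, a lysyl oxidase-like enzyme best known for cross-linking collagen IV, was 6.78, 7.01, 7.04, 7.17 and 7.18 in TiO2_D0 rats. TiO2_D28 rats ran from 7.22 over a median of 7.71 to 7.99, above all D0 rats by a narrow margin at the low end. Loxl2 rose by 0.65 (SE 0.12, 95% interval 0.39 to 0.91), a FC of 1.57, with a limma adjusted p of 0.0133. Control rats differed by 0.37 (SE 0.12) and overlapped, from 7.16 to 7.48 on D0 and from 7.37 to 7.97 on D28. The Loxl2 call depended on 1 rat and on the fit: without TiO2_D0 replicate 5 its adjusted p was 0.0608, and with the exposed groups fitted alone it was 0.155.

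Loxl1, the lysyl oxidase-like enzyme known for elastin renewal, was 7.87, 7.91, 8.10, 8.37 and 9.26 in TiO2_D0 rats and from 8.80 to 9.66 in TiO2_D28 rats. A single D0 rat, replicate 4, lay among the D28 values, and the other 4 lay below all of them. The difference was 0.81 (SE 0.22), a FC of 1.75, and the limma adjusted p of 0.135 missed the threshold. Without TiO2_D0 replicate 4 it was 1.05 with an adjusted p of 0.00569, and with the slide as a fixed block 0.76 with an adjusted p of 0.00803. With the exposed groups fitted alone the limma adjusted p was 0.494. Loxl1 was called in 3 of 14 settings and in 1 of 23 fits without 1 array. Control rats differed by 0.53 (SE 0.21).

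**Figure D2:**
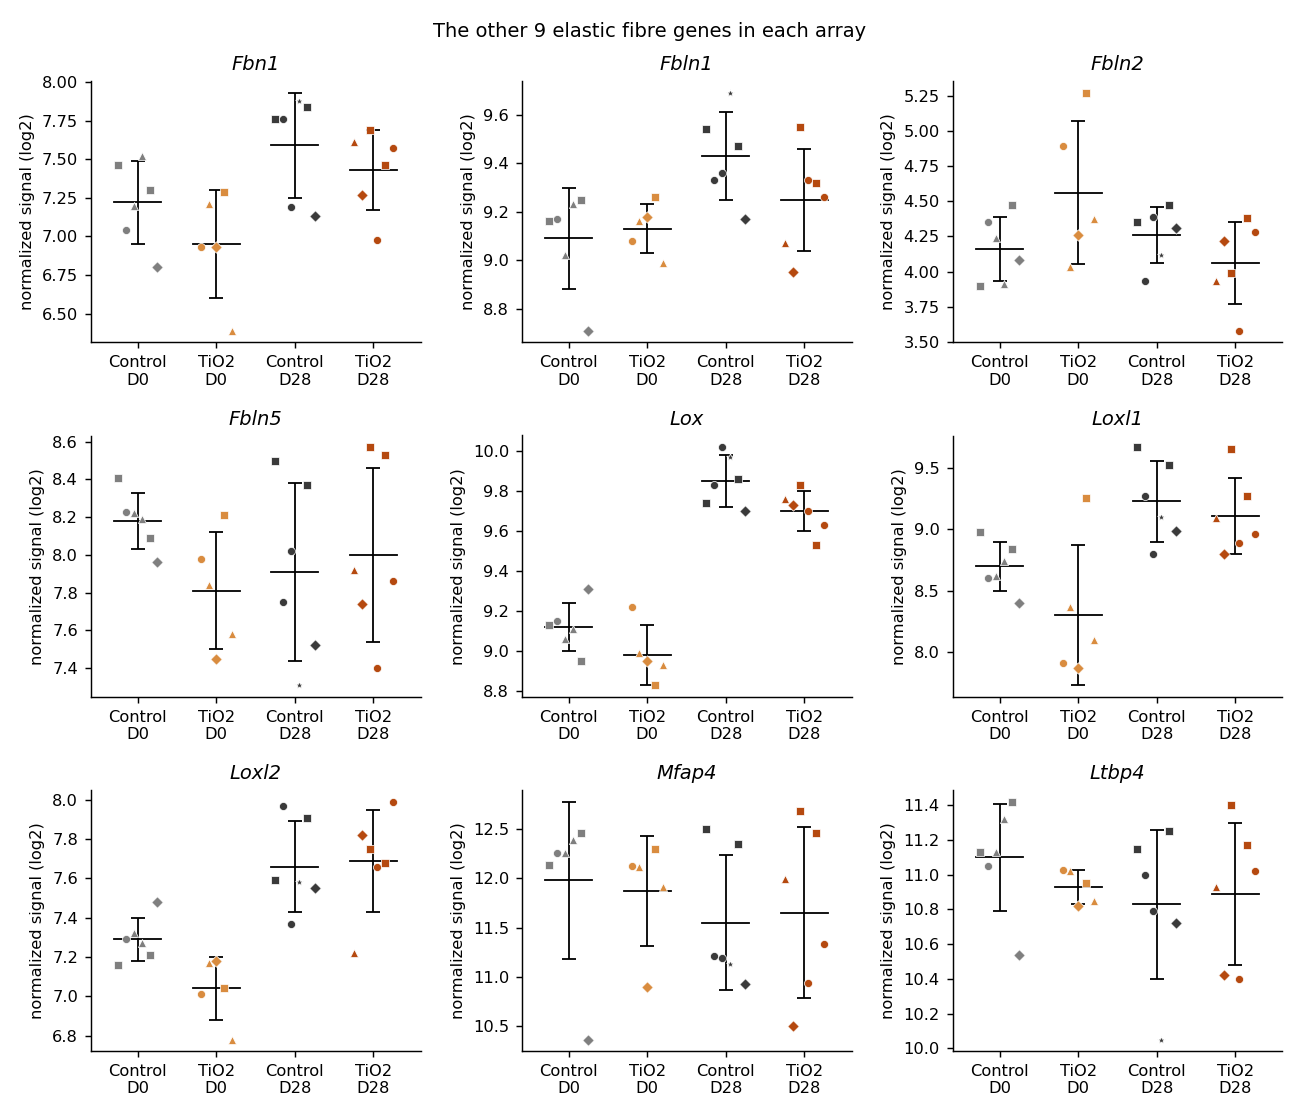
Normalized log2 signal of the 9 other members in each array by group, with marker shapes for the slides (circle 1, star 2, square 3, triangle 4, diamond 5), lines for group means and bars ± SD; each panel has its own axis. Lox separates D28 from D0 in both exposed and control rats, whereas Mfap4 spreads from 10.36 to 12.69 over groups that overlap.

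Fibrillin-1, the product of Fbn1, forms the microfibrils on which elastin is laid. Fbn1 was 6.39, 6.93, 6.93, 7.21 and 7.29 in TiO2_D0 rats and from 6.98 to 7.69 in TiO2_D28 rats. The groups overlapped, and the difference of 0.48 (SE 0.18) had a limma adjusted p of 0.465. Control rats differed by 0.37 (SE 0.17).

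Mfap4 and Ltbp4 encode proteins bound to elastic fibres and microfibrils; the Ltbp4 protein also binds latent TGF-beta and helps fibulin-5 deposit elastin. Neither was called between the days in exposed rats. Mfap4 differed by -0.22 (SE 0.43, 95% interval -1.12 to 0.68) and Ltbp4 by -0.04 (SE 0.20, 95% interval -0.47 to 0.38), both with intervals that include changes in either direction. In control rats they differed by -0.43 (SE 0.41) and -0.27 (SE 0.19), opposite in sign to Eln.

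Fibulins link tropoelastin to microfibrils and to cells. Fbln5, whose product binds both tropoelastin and the Loxl1 enzyme, ran from 7.45 to 8.21 in TiO2_D0 and from 7.40 to 8.57 in TiO2_D28 rats, with a difference of 0.19 (SE 0.22, 95% interval -0.27 to 0.65). Fbln1 differed by 0.11 (SE 0.12). Its 2 probes were not alike: in control rats A_44_P1082923 (chr7:123287230-123287289 on rn4) differed by 0.66 (SE 0.13) between the days and A_42_P801831 (chr7:123245156-123245215) by 0.01 (SE 0.20).

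Fbln2 differed by -0.50 (SE 0.19, limma adjusted p = 0.463) as the mean of 3 probes. Of these, A_43_P17529 was well above background on 1 of 23 arrays and A_43_P17692 on 6 of 23, so the mean is mostly of dim probes. The probe that was well above background on 23 of 23 arrays, A_64_P043164 (chr4:125440452-125440511 on rn4), differed by 0.10 (SE 0.12). The other 13 probes of the members were well above background on every array, and none was saturated.

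**Figure D3:**
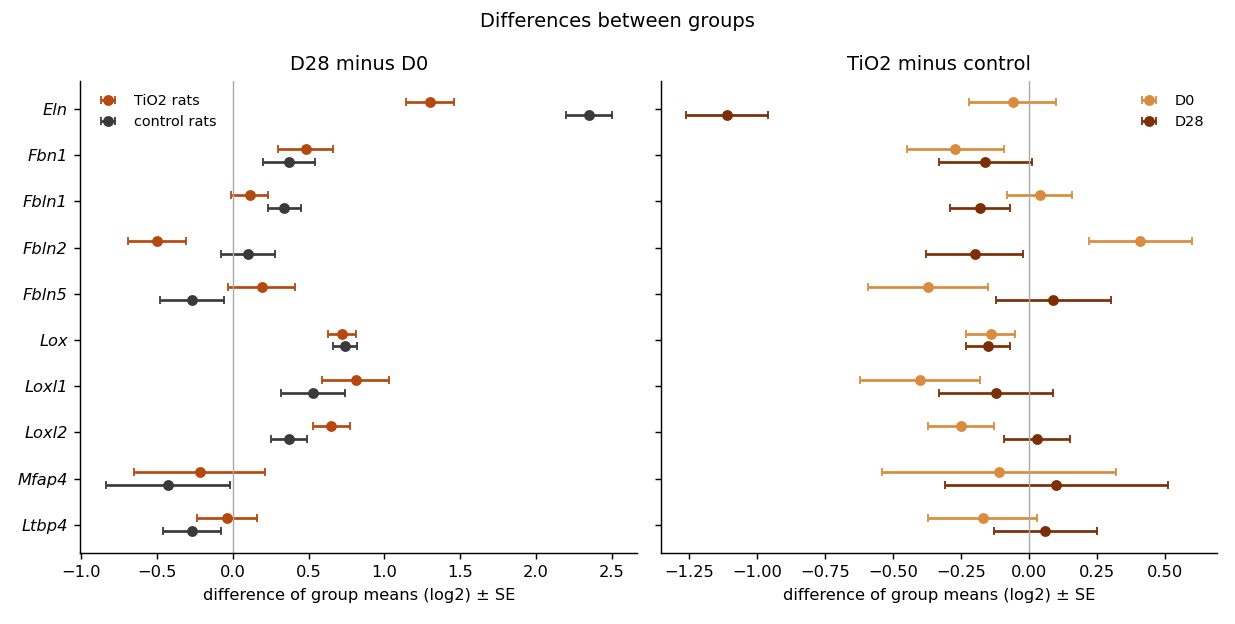
Log2 differences of group means ± SE for the 10 members, on the left D28 minus D0 in exposed and in control rats, on the right TiO2 minus control on D0 and on D28. Eln differs by 1.30 and 2.35 between the days and by -1.11 between exposed and control rats of D28, while the other members stay within -0.50 and 0.81 in every comparison shown.

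The effect of TiO2 itself was tested for the 9 members other than Eln. On D0, 0 of 9 were called by limma, where 1.85% of all genes were. Fbln2 alone had an unadjusted p below 0.05 (0.044), with 0.41 (SE 0.19), and its bright probe gave -0.20 (SE 0.12). The median of the 9 was -0.17 against -0.01 over all genes, with 2 of 9 above 0. Loxl1 (-0.40, SE 0.22), Fbln5 (-0.37, SE 0.22), Fbn1 (-0.27, SE 0.18) and Loxl2 (-0.25, SE 0.12) had the lowest values, none of which passed the test (adjusted p from 0.427 to 0.677).

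On D28, 0 of 9 members were called, where 0.787% of all genes were, and 0 of 9 had an unadjusted p below 0.05. Their differences ran from -0.20 for Fbln2 to 0.10 for Mfap4, with a median of -0.12. The bright probe of Fbln2 gave -0.06 (SE 0.11). For Lox the difference was -0.15 (95% interval -0.32 to 0.02) and for Loxl2 0.03 (95% interval -0.22 to 0.27). The effects of TiO2 on D28 and on D0 differed in 0 of 9 members by limma, where 0.0304% of all genes were called. Fbln2 alone had an unadjusted p below 0.05 in that comparison (0.0311, difference -0.60, SE 0.26), and its bright probe gave 0.14 (SE 0.16).

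Mfap4, Ltbp4 and Fbln5 differed between slides 3 and 5. Mfap4 values were 12.14 to 12.69 on the 7 arrays of slide 3, which held all 4 groups, and 10.36 to 10.93 on the 4 arrays of slide 5, which also held all 4 groups. On slide 1 Mfap4 was 12.26 and 12.13 in the Control_D0 and TiO2_D0 array and from 10.94 to 11.33 in the 4 arrays of D28. Ltbp4 ran from 10.95 to 11.42 on slide 3 and from 10.42 to 10.82 on slide 5. Fbln5 ran from 8.09 to 8.57 and from 7.45 to 7.96. None of the 3 genes overlapped between slides 3 and 5, and neither did Fbn1 (7.29 to 7.84 and 6.80 to 7.27). The share of all genes without overlap between these slides was not determined, so whether this is particular to these genes is not known. On slide 1, Ltbp4 ran from 10.40 to 11.05 and Fbln5 from 7.40 to 8.23, so that both overlapped slide 3 and slide 5. On slide 4, Mfap4 (11.91 to 12.39) and Ltbp4 (10.85 to 11.32) overlapped slide 3 and not slide 5. Fbln5 (7.58 to 8.22 on slide 4) overlapped both.

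With the slide as a fixed block the SE of the Mfap4 day difference in exposed rats fell from 0.43 to 0.21, and its value was -0.24 (limma adjusted p = 0.664). As a description over 23 arrays, the deviations from group means of these 3 genes moved together, with Pearson r of 0.80 for Mfap4 and Ltbp4, 0.78 for Fbln5 and Mfap4 and 0.77 for Fbln5 and Ltbp4. The arrays of a slide are shared by all 3 values.

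**Figure D4:**
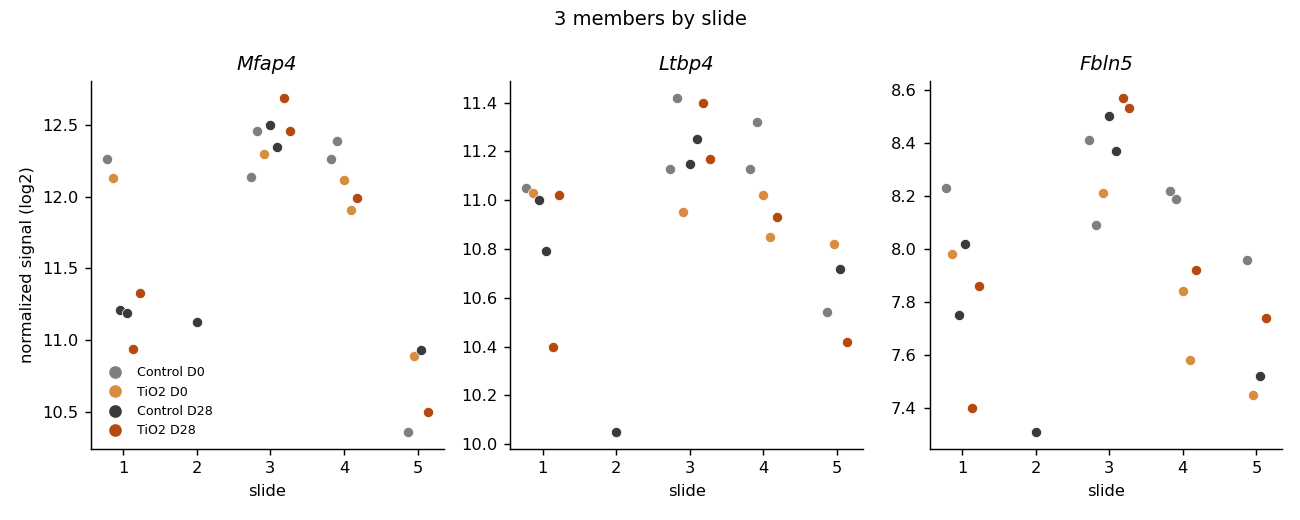
Normalized log2 signal of Mfap4, Ltbp4 and Fbln5 in each array, placed by slide and coloured by group. Arrays of slide 3 (Mfap4 from 12.14 to 12.69) lie above those of slide 5 (10.36 to 10.93) for each of the 3 genes, whatever the group.

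Other elastic fibre and microfibril genes, 30 measured of a list of 31, were not called between the days in exposed rats. Their median difference was 0.16, from -0.34 to 0.62, and 22 of 30 were above 0. On D0, 1 of 30 was called between exposed and control rats, where 1.85% of all genes were. This was Mfap5, whose product MAGP-2 sits on microfibrils, and it was lower with TiO2. It was 11.15 ± 0.13 (SD, n = 6) in Control_D0 and 10.56 ± 0.12 (SD, n = 5) in TiO2_D0 rats, a difference of -0.59 (SE 0.09, limma adjusted p = 0.000656). On D28 none of the 30 was called and Mfap5 differed by -0.04 (SE 0.09).

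Enzymes that degrade elastin, their inhibitors and the elastin receptor made up a list of 25 genes, 22 of them measured. The elastin-degrading enzymes Elane, Ctsg and Ctsv were not measured, so nothing is said of them. Between exposed and control rats, 4 of 22 were called on D0 and 2 of 22 on D28, all higher with TiO2. Over all genes, 1.85% were called on D0 and 0.787% on D28. Mmp7, matrilysin, rose by 1.59 (SE 0.25, limma adjusted p = 0.000965) on D0 and by 1.49 (SE 0.24, adjusted p = 0.00264) on D28. Ctsk, cathepsin K, a strong elastase, rose by 0.69 (SE 0.14) and 0.87 (SE 0.13). Mmp14, a membrane-bound matrix metalloproteinase, rose by 0.59 (SE 0.10) and A2m, the protease inhibitor alpha-2-macroglobulin, by 1.55 (SE 0.34) on D0. A2m was uneven between exposed rats, at 7.15 ± 1.08 (SD) in TiO2_D0 against 5.60 ± 0.17 (SD) in Control_D0 rats. Between the days in exposed rats 1 of 22 was called, where 0.369% of all genes were. This was Timp3, an inhibitor of metalloproteinases bound to matrix, which was lower on D28 by -0.87 (SE 0.14, limma adjusted p = 0.00337).

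Among 30 regulators of elastin synthesis, all measured, 3 were called with TiO2 on D0 and 0 on D28, where 1.85% and 0.787% of all genes were. Tgfbr1, a receptor of TGF-beta, which is known to raise elastin mRNA, was higher by 0.72 (SE 0.17) on D0. Tnf, a cytokine known to lower elastin transcription, was higher by 1.06 (SE 0.22) on D0. It was the 1 of 30 called between the days in exposed rats, where 0.369% of all genes were. Tnf was lower on D28 by -1.31 (SE 0.22, limma adjusted p = 0.00456). Fosl1, a Fos family factor, was called too but was well above background on only 3 of 23 arrays, and no fold is given.

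Markers of cells that can make elastin were compared between the days in exposed rats, where 0.369% of all genes were called and 0.23% were called higher. Of 14 fibroblast genes 2 were called higher on D28, Col1a1 by 1.20 (SE 0.16) and Col3a1 by 0.99 (SE 0.13), with limma adjusted p of 0.000292 and 0.00035. Of 11 smooth muscle genes 1 was called, Hhip, a Hedgehog-binding protein, higher by 2.18 (SE 0.20, adjusted p = 2.88e-06). None of 8 pericyte, 8 mesothelial or 8 cartilage genes was called in that comparison. The list medians were 0.28 (fibroblast), 0.15 (smooth muscle), 0.15 (pericyte), 0.31 (mesothelium) and -0.10 (cartilage).

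The summed linear signal of the fibroblast list ran from 29980 to 38350 in TiO2_D0 and from 37880 to 47102 in TiO2_D28 rats, and from 33724 to 42472 and from 38482 to 49350 in control rats of the 2 days. That of the smooth muscle list ran from 10692 to 12738 in TiO2_D0 and from 12623 to 19237 in TiO2_D28 rats, and from 13836 to 16923 and from 14034 to 17959 in control rats. Mylk and Actg2 weigh most in the smooth muscle sum, with median log2 signals of 12.37 and 11.68, where Lmod1 had 3.92 and Synpo2 4.60. The fibroblast sum holds Col1a1 and Col3a1. The part of cell numbers in the differences of Eln, Lox and Loxl2 was not tested. Cartilage markers, which the airways of a lobe may carry, were mixed. Acan and Col11a1 were well above background on 0 of 23 arrays, Col9a1 on 10 and Matn1 on 16. Col2a1, Comp, Cytl1 and Sox9 were well above background on 23 of 23.

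Between exposed and control rats of D0, 3 of 8 mesothelial genes were called, all lower with TiO2, where 1.85% of all genes were called in either direction: Upk1b by -0.64 (SE 0.13), Lrrn4 by -0.64 (SE 0.12) and Wt1 by -0.63 (SE 0.17). The summed signal of the 8 genes ran from 16725 to 19334 in TiO2_D0 and from 19732 to 25428 in Control_D0 rats, without overlap. Msln, Krt19 and Upk1b make up most of this sum. Their median log2 signals were 13.03, 12.81 and 12.12, and those of the other genes 7.61 or less. On D28, 0 of 8 were called, 0 of 8 were above 0 and their median was -0.36, with a summed signal of 15562 to 21282 in TiO2_D28 and 18506 to 25923 in Control_D28 rats. The medians of the fibroblast, smooth muscle and pericyte lists on D28 were -0.16, -0.07 and -0.23, with no gene called. Called lower by TiO2 on D0 as well were Tcf21, a factor of lung lipofibroblasts (-0.66, SE 0.15), and Rgs5 of pericytes (-0.66, SE 0.17), while Notch3 of mural cells was higher (0.77, SE 0.12). The atrial myosin light chain gene Myl7, a marker of cardiac muscle, was lower on D0 (-0.61, SE 0.13) and on D28 (-0.62, SE 0.12). The macrophage marker Siglec1 was higher on D0 (0.89, SE 0.16). The macrophage sum ran from 15179 to 17224 on D0 against 10135 to 12657 in controls, and on D28 from 11660 to 14599 against 9337 to 11431. Cd68 weighs most in this sum, with a median log2 signal of 13.20, where Siglec1 had 10.16 and the other genes less. Of the 8 macrophage genes, 7 were above 0 on D0 (median 0.34) and 6 on D28 (median 0.31). Of the endothelial, alveolar type I, alveolar type II and ciliated airway genes none was called in the 3 comparisons. Their medians for TiO2 minus control were -0.29, -0.31, 0.14 and -0.29 on D0, and -0.28, -0.27, 0.09 and -0.42 on D28. Sums lower with TiO2 on D0 without overlap were not particular to the mesothelial list. Those of smooth muscle and alveolar type I genes (145058 to 175357 against 179026 to 219243) were lower likewise. So was that of ciliated airway genes (3471 to 5511 against 5557 to 6883). The alveolar type II and macrophage sums were higher without overlap, and the other cell type sums overlapped. The part of these cells in the member values was not tested.

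Genes were ranked by how closely their signal followed Eln over the 23 arrays, as a description without a test, since the groups set most of the spread and the arrays are shared. The 10 highest among all genes other than the members were Mcub (Pearson r = 0.97), Npas2 (0.95), Col3a1 (0.93), Col1a1 (0.91), Hs3st6 (0.91), Acss1 (0.90), Arntl (0.89), Fibin (0.88), Pdgfrb (0.88) and Dipk1a (0.85). Of the members Lox had 0.91, Loxl1 0.72, Loxl2 0.69, Fbn1 0.68 and Fbln1 0.64. Fbln5, Fbln2, Mfap4 and Ltbp4 lay between -0.24 and -0.06.

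Col1a1 and Col3a1, the chains of fibrillar collagens I and III, are known products of the fibroblasts that also make elastin. Col1a1 had group means of 9.99 (Control_D0), 10.18 (TiO2_D0), 11.57 (Control_D28) and 11.38 (TiO2_D28). Its TiO2 minus control difference on D28 was -0.18 (SE 0.15) and that of Col3a1 -0.36 (SE 0.13). As genes of the fibroblast list, neither was called there (limma adjusted p = 0.739 and 0.219). Their likeness to Eln was not tested.

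Npas2 and Arntl encode partners that drive the circadian clock, and their levels are known to follow the time of day. Npas2 had group means of 6.56 (Control_D0), 6.15 (TiO2_D0), 9.34 (Control_D28) and 8.32 (TiO2_D28), in the order of the 2 days and of the D28 groups that Eln had. Arntl had 7.31, 7.87, 9.71 and 8.47. Per2, a repressor of that pair, which was singled out after its values were seen as the gene with the lowest r (-0.92), had 9.90, 10.16, 7.54 and 8.63. Between exposed and control rats of D28 the differences were -1.02 for Npas2, -1.24 for Arntl and 1.1 for Per2, given without a test because these genes were picked for their likeness to Eln over the same arrays. The time of day at which rats were killed is not given in the sources used here, and its part in the Eln values was not tested.

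**Figure D5:**
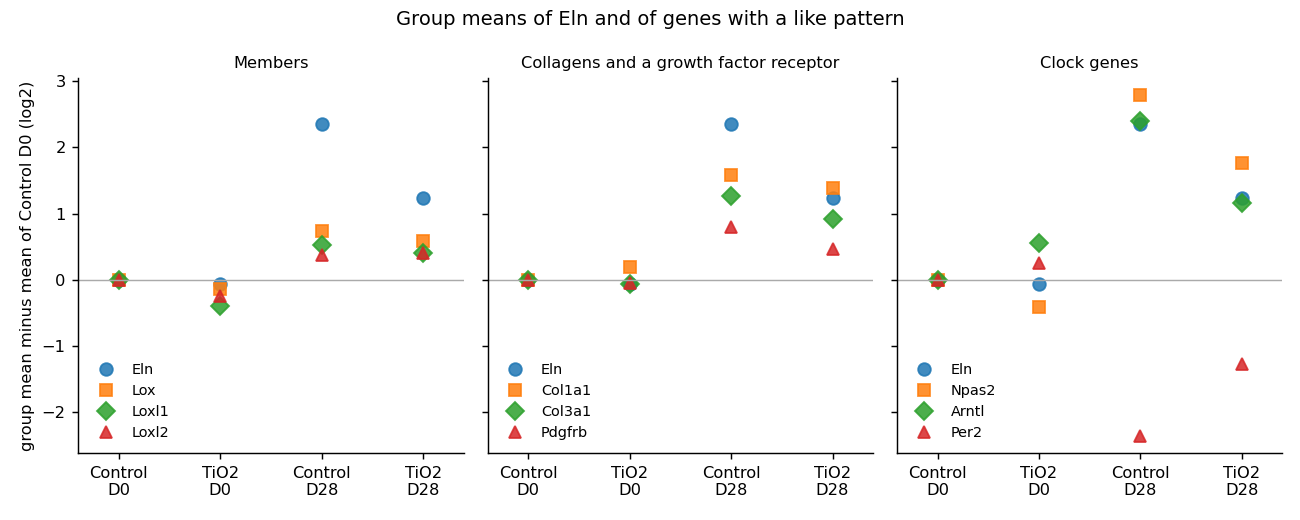
Group means of Eln and other genes minus the mean of Control_D0, in log2 units, for lysyl oxidase genes, for collagens with Pdgfrb, and for clock genes. Eln, Npas2 and Arntl are highest in Control_D28 and lower in TiO2_D28, Per2 is lowest in Control_D28, and the collagens are high in both D28 groups.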

How the data were processed

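Processed signals, as an intensity per spot, were deposited by the authors as scanner output of Agilent Feature Extraction (11.0.1.1 on 22 arrays, 12.0.1.1 on 1, per the file headers), background-corrected and not normalized between arrays. The authors also deposited a table of all arrays, with intensity quantile normalized and, from the values, not background-corrected. Here control spots were left out, outlier-marked spots were set missing, log2 spots of a probe were averaged, and 40417 of 45598 probes passed the filter against 308 negative control spots. After quantile normalization, 32415 probes with a symbol were averaged to 23010 genes (6970 with several probes). Gene names came from the array of the later software. R 4.3.3 and limma 3.58.1 fitted 4 group means with 19 residual degrees of freedom and no batch term; the batches that the study's methods corrected are not named. A gene was called at a Benjamini-Hochberg adjusted p below 0.05 over all genes with a FC of 1.5 or more, up or down. The fit was tested on simulated data.

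Members and gene lists were chosen with earlier results of these data known. Every member was named, every gene of the other lists called in a tested comparison, and the 10 genes most like Eln by each of 2 correlations. In all, 14 alternative settings and 23 fits without 1 array each were run; keeping outlier-marked spots was added after the data were seen.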

Additional observations from a re-analysis of the deposited data

Results flagged for a closer look

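Of 40 sets of values, 10 members in 4 groups each, 2 held a rat far from the others of its group, both for Mfap4, the microfibril-associated glycoprotein, where chance flags about 1 in 20 sets. Mfap4 was 10.36 in Control_D0 replicate 6, and from 12.14 to 12.46 in the other 5 rats of that group. It was 10.89 in TiO2_D0 replicate 3, and from 11.91 to 12.30 in the other 4. Both arrays lay on slide 5, where all 4 arrays were between 10.36 and 10.93.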

How the results depend on the processing

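The counts of members called were 3 (days, exposed rats) and 0 in the other 3 comparisons. Under the 14 settings the first was from 2 to 4 and without 1 array each from 2 to 4, while the others were 0 in every setting and leave-one-out fit. Eln and Lox were called in all 14 settings (largest adjusted p 0.0129 each) and all 23 leave-one-out fits (0.000773). Loxl2 lost its call with normexp (0.46), the deposited table (0.53) and array weights (0.57), all under the fold limit, with the exposed groups alone (0.65, adjusted p = 0.155) and without TiO2_D0 replicate 5 (0.59). Loxl1 gained one with the slide as a fixed block (0.76), as a random block (0.77), with array weights (0.86) and without TiO2_D0 replicate 4 (1.05). The cause was not tested. The descriptive Eln difference between control groups was 2.28 to 2.36 over the settings, 2.28 to 2.44 in the leave-one-out fits, and 2.62, 2.43 and 1.84 within slides 1, 3 and 5.

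Same-numbered arrays of different groups were fitted as unpaired. Of 33 such pairs, 12 had deviations with r over 0.1 (from -0.30 to 0.45 over all pairs), and 7 correlated best with their own number. These correlations do not settle whether the numbers mark pairs. With the replicate block 3 members were called between the days and 0 in the other comparisons, and all-gene counts went from 85 to 73 (days), 425 to 385 (D0), 181 to 142 (D28) and 7 to 5 (difference of effects).

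Counts over all genes moved by over 1.5 times from 85 (days) to 131 and 137 with the slide as fixed or random block and 32 with the groups alone. They moved from 425 (D0) to 223 with normexp and 724 without the fold limit. They moved from 181 (D28) to 93 with normexp, 120 with the deposited table, 45 with the groups alone, 324 without the fold limit and 114 without TiO2_D28 replicate 1. They moved from 7 (difference of effects) to 12 with normexp, 11 with the well-above-background filter, 14 with the random slide block, 11 with array weights and 14 without TiO2_D28 replicate 4. Eln has 1 probe, so no comparison of its probes was run.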

Other observations

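Ranked by deviations from group means over 23 arrays, the genes most like Eln were Wnt8a (r = 0.77), Akna (0.76), Rnf34 (0.74), Pitpnm1 (0.73), Crybg1 (0.73), Nim1k (0.71), Ly86 (0.71), Nckap1l (0.70), Inpp1 (0.70) and Tmem43 (0.70), which differ from those most like it over all arrays. Of the members, Fbn1 had 0.60 and Loxl1 0.54 by this measure, Lox 0.25 and Loxl2 0.04. These are descriptions without a test.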
